A study of Mus musculus with 5 samples.

Results

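Interferon-stimulated genes and the interferon regulatory factors (IRFs) were followed in the thymus of mice without ZAS3. A fixed list of 43 gene symbols was used, which holds interferon receptors, the transcription factors that answer to them, cytosolic RNA sensors, antiviral effector genes and the GTPases induced by interferon gamma. Of these, 40 were measured by 1 probe each, among 16504 genes that could be named on the array. No ratio is given for the other 3 (Oas1a, Ifi27 and Ifi44). Those of them with a promoter window, Oas1a among them, enter only the counts of promoter motifs.

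Each of 5 arrays set total RNA of a ZAS3-null whole thymus against total RNA of a wild-type whole thymus on 2-colour Agilent 60-base oligonucleotide arrays. Both RNAs of an array came from littermates of the same sex, aged 6 to 8 weeks, and neither the strain nor the deleted part of the gene is given in the labels. Whole thymus is the tissue in the labels, whereas the design text names thymocytes. Because the files hold ratios and no levels, the tissue could not be checked against its markers. ZAS3 is encoded by Hivep3 and is a zinc finger protein known to bind kappaB-type DNA elements.

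Interferons are cytokines that cells release on viral infection. Type I interferons (alpha and beta) signal through the receptor chains Ifnar1 and Ifnar2, and interferon gamma through Ifngr1 and Ifngr2. The type I receptor leads to a complex with STAT2 and IRF9 that binds interferon-stimulated response elements in the promoters of antiviral genes, while interferon gamma acts mainly through gamma-activated sites. In the thymus, epithelial cells make type I interferon at a low level without infection. Interferon-stimulated genes respond to it in developing T cells and in other cells alike. The list also holds the receptors and the constitutive factor Irf3.

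The values are log2 ratios of the 2 channels. Their direction was not settled by the sources, because the ZAS3-null RNA carries Cy5 in the sample labels and Cy3 in the design text. A positive ratio likely means more RNA in ZAS3-null than in wild-type thymus, judged from the titles and from which RNA is listed as channel 1, and the values are given below as positive or negative log2 ratios. No dye swap was made, so dye and genotype cannot be told apart. The targeted gene, Hivep3, had a log2 ratio of 0.08 ± 0.07 as deposited (SD, n = 5; limma adjusted p = 0.37) and 0.17 ± 0.09 after the position correction described here (adjusted p = 0.141). Where its probes lie relative to the deleted part is not known, so it does not check the labels. Gene names rest on a probe order recovered from the data, under which 256 of 256 very low spots fell on numbers with no gene, against 41 of 256 with the numbers as deposited. The ratios were higher toward the right side of the slide, and each value is therefore given as deposited and after position correction, which took away from each spot the median of a square of 21 by 21 spots around it. Each fit tested 20861 features, and a call means an adjusted p under 0.05.

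The interferon genes lay mostly below 0, by a small amount. As deposited, 30 of the 40 genes had a negative mean log2 ratio, against 53.7% of all named genes, and the median of their means was -0.16, against -0.03 for all named genes. After position correction 33 of 40 were negative, against 51.6% of all named genes, with a median of -0.17 against -0.01. The range of the corrected means was -0.49 (Oas2) to 0.31 (Oasl2). As deposited, 8 of the 40 were negative past the threshold (background 12.9% of all named genes) and 1 was positive (background 12.0%). After correction 1 was negative (background 2.30%) and 0 were positive (background 0.612%), while 15 of the 40 had an unadjusted limma p under 0.05 (background 27.0%). As deposited 18 had one (background 40.3%). On all 5 arrays, 15 of the 40 were negative after correction (background 14.5%) and 1 was positive (background 11.7%). As deposited these counts were 12 (background 20.5%) and 3 (background 16.7%). No member met the authors' own criterion, 1.5-fold or more in 4 of the 5 hybridizations, in either direction, as deposited (backgrounds 0.406% and 0.460%) or after correction (backgrounds 0.0485% and 0.194%).

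**Figure D1:**
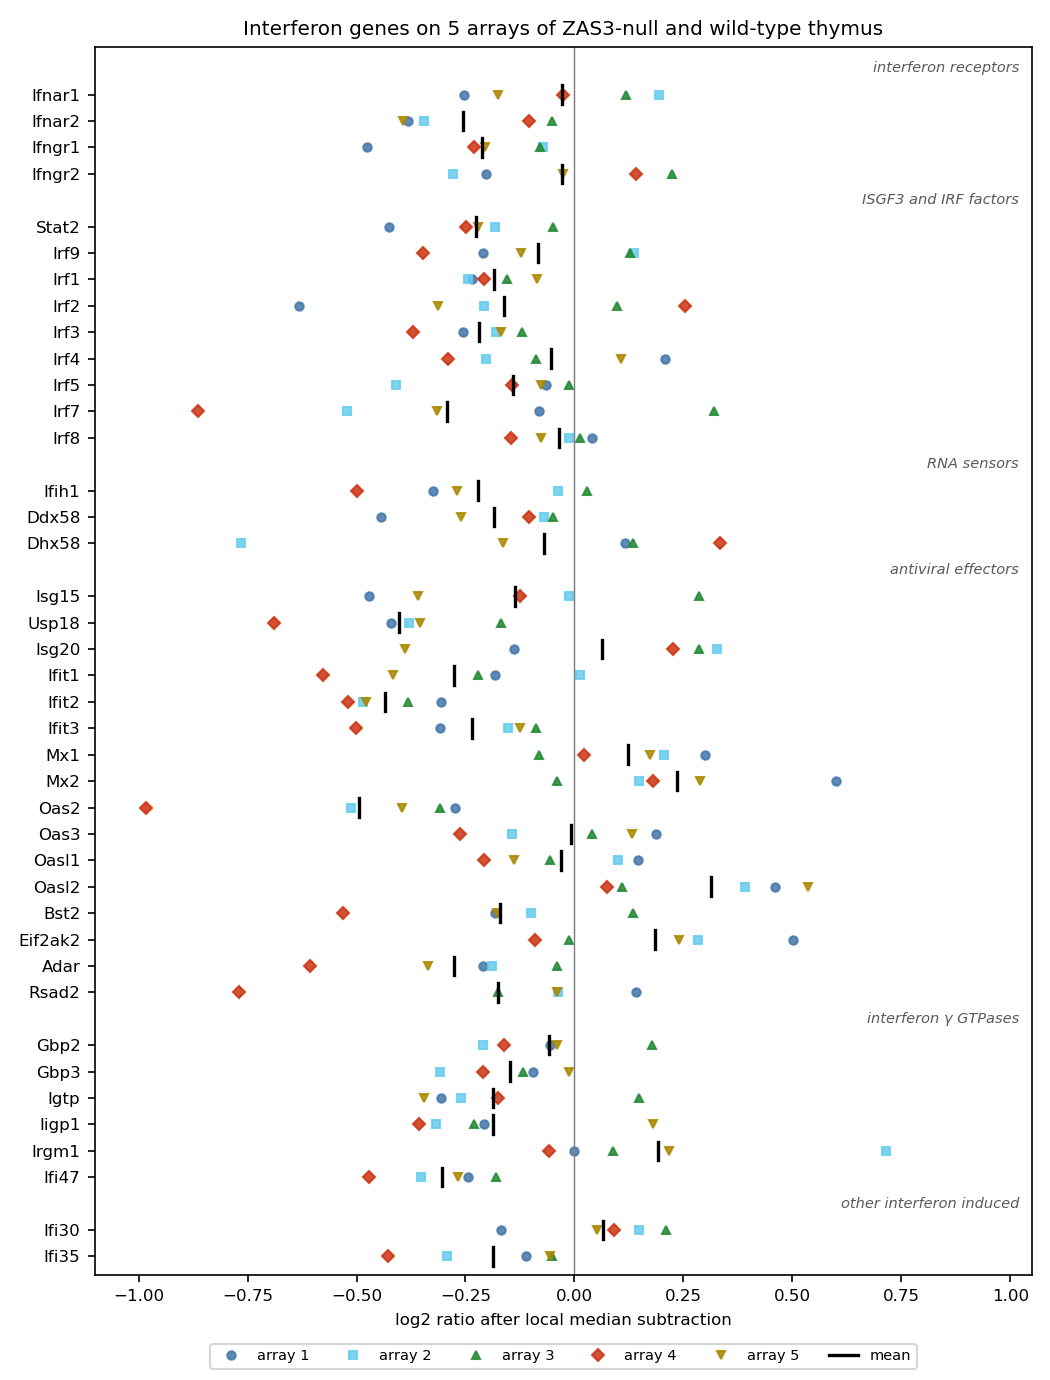
Log2 ratio after position correction (x axis) of each of the 40 interferon genes (rows, grouped by role) on arrays 1 to 5 (coloured symbols), with the mean as a black bar. Most means lie left of 0, Ifit2 has all 5 values between -0.52 and -0.31, and the red diamonds of array 4 are often the lowest, as for Oas2, Irf7, Rsad2 and Usp18.

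The receptor genes gave weak negative ratios. Ifnar2, the high-affinity chain of the type I receptor, had -0.51, -0.55, -0.19, -0.37 and -0.56 on arrays 1 to 5 as deposited, a mean of -0.43 ± 0.16 (SD, n = 5; limma adjusted p = 0.0124). All 5 arrays were negative, with array 3 the nearest to 0. After correction the values were -0.38, -0.34, -0.05, -0.10 and -0.39, and the mean of -0.25 ± 0.16 did not pass (adjusted p = 0.103). Ifnar1, the partner chain, had -0.38, -0.06, -0.08, -0.14 and -0.29 as deposited and -0.25, 0.19, 0.12, -0.03 and -0.18 after correction. Its corrected values lay on both sides of 0 (mean -0.03 ± 0.19). Ifngr1, the ligand-binding chain for interferon gamma, had -0.38, -0.04, 0.10, -0.03 and -0.03 as deposited. After correction it was negative on 5 of 5 arrays, with -0.48, -0.07, -0.08, -0.23 and -0.20 (mean -0.21 ± 0.16; adjusted p = 0.145). Ifngr2, the accessory chain, had -0.33, -0.45, 0.03, -0.15 and -0.20 as deposited, and -0.20, -0.28, 0.22, 0.14 and -0.03 after correction. Of the 4 receptor genes 1 was called as deposited, with a negative ratio (background 12.9% of all named genes). After correction 0 were called (background 2.30%), and 2 had an unadjusted limma p under 0.05 (background 27.0%).

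All 9 transcription factors had a negative mean both times (backgrounds 53.7% and 51.6% of all named genes). Their medians were -0.22 as deposited and -0.16 after correction. As deposited 2 were called, both negative (background 12.9%), and 0 were after correction (background 2.30%). Stat2, a signal transducer of the type I receptor, had -0.26, -0.11, 0.18, 0.01 and -0.06 on arrays 1 to 5 as deposited. It lay in a region of positive neighbours (mean local median 0.18), and after correction it had -0.43, -0.18, -0.05, -0.25 and -0.22 (mean -0.23 ± 0.14; adjusted p = 0.11). The position correction thus placed all 5 arrays below 0 where 3 had been. Irf9, the DNA-binding subunit of the complex with STAT2, had -0.24, -0.01, 0.08, -0.33 and -0.14 as deposited, and -0.21, 0.14, 0.13, -0.35 and -0.12 after correction (mean -0.08 ± 0.21).

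Irf3, the constitutive factor that switches on interferon beta after RNA or DNA sensing, had -0.37, -0.36, -0.24, -0.58 and -0.29 as deposited (mean -0.37 ± 0.13; adjusted p = 0.0153). After correction it had -0.26, -0.18, -0.12, -0.37 and -0.17, negative on every array but not past the threshold (mean -0.22 ± 0.10; adjusted p = 0.0933). Irf5, a factor active in myeloid and B cells, had -0.20, -0.58, -0.24, -0.45 and -0.23 as deposited (mean -0.34 ± 0.17; adjusted p = 0.0268). Its corrected values were -0.06, -0.41, -0.01, -0.14 and -0.08 (mean -0.14 ± 0.16; adjusted p = 0.272), with array 2 well below the other 4. Irf1, an activator of interferon gamma targets that is also needed for CD8 T cell development in mice, had -0.15, -0.29, -0.06, -0.06 and -0.01 as deposited. After correction it had -0.23, -0.24, -0.15, -0.21 and -0.08, the tightest corrected values of the 40 genes (mean -0.19 ± 0.07; adjusted p = 0.11). Irf7, the interferon-induced factor that amplifies interferon alpha production, varied widely, with -0.14, -0.68, 0.25, -0.93 and -0.40 as deposited and -0.08, -0.52, 0.32, -0.86 and -0.32 after correction. Array 3 was positive and array 4 strongly negative, and the corrected mean of -0.29 ± 0.45 did not pass (adjusted p = 0.285). The remaining factors, Irf2, Irf4 and Irf8, had corrected means between -0.16 and -0.04, and each was negative on 3 of 5 arrays.

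The 3 RNA sensors were negative as deposited and closer to 0 after correction. They lay in slide columns 5 to 24, where the neighbouring spots were also negative. Ddx58 (RIG-I, the sensor of viral RNA ends) had -0.59, -0.34, -0.26, -0.38 and -0.41 as deposited (mean -0.40 ± 0.12; adjusted p = 0.0118). Its corrected values were -0.44, -0.07, -0.05, -0.10 and -0.26 (mean -0.19 ± 0.17; adjusted p = 0.186), with the local median of its surroundings at -0.21. Ifih1 (MDA5, the sensor of long double-stranded RNA) averaged -0.37 ± 0.27 as deposited (adjusted p = 0.0511), and its corrected mean was -0.22 ± 0.22. Dhx58 (LGP2, a regulator of both) had -0.25 ± 0.41 and -0.07 ± 0.43, with array 2 alone far below 0 at -0.76 after correction.

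Among 16 antiviral effector genes, 3 were negative past the threshold as deposited (background 12.9% of all named genes) and 1 was positive (background 12.0%). After correction 1 was negative (background 2.30%). Ifit2, a member of the tetratricopeptide family that restrains translation of viral RNA, was the only one of the 40 genes called both times. It had -0.26, -0.56, -0.31, -0.42 and -0.46 on arrays 1 to 5 as deposited (mean -0.40 ± 0.12; adjusted p = 0.011). After correction it had -0.31, -0.49, -0.38, -0.52 and -0.48 (mean -0.43 ± 0.09, a 1.35-fold difference; adjusted p = 0.0169). The 5 arrays were close together, and the neighbouring spots lay near 0 (local median 0.03). The corrected call held without array 1 or 2 and was lost without array 3, 4 or 5 (adjusted p = 0.0577, 0.101 and 0.12). Its paralogues Ifit1 and Ifit3 lie near it in the genome, with 0 protein-coding genes between Ifit2 and Ifit3. Ifit1 had a corrected mean of -0.28 ± 0.23 (adjusted p = 0.127) and Ifit3 of -0.23 ± 0.17 (adjusted p = 0.125), negative on 4 and 5 of 5 arrays. As deposited they had -0.11 and 0.00, in columns 99 and 91, where the local medians were 0.16 and 0.24.

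Oas2, which makes 2'-5' oligoadenylate to activate RNase L, had the lowest corrected mean. It had -0.28, -0.53, -0.32, -0.94 and -0.37 as deposited (mean -0.49 ± 0.27; adjusted p = 0.0239) and -0.28, -0.51, -0.31, -0.98 and -0.40 after correction (mean -0.49 ± 0.29; adjusted p = 0.0614). Array 4 was well below the other 4. Oas3, its direct neighbour in the genome and of the same enzyme family, had 0.02 ± 0.20 as deposited and -0.01 ± 0.19 after correction, with values on both sides of 0. Usp18, the protease that removes ISG15 and damps the type I receptor, had -0.38, -0.38, -0.08, -0.57 and -0.26 as deposited (mean -0.33 ± 0.18; adjusted p = 0.0307). After correction it had -0.42, -0.38, -0.17, -0.69 and -0.35 (mean -0.40 ± 0.19; adjusted p = 0.0528), negative on every array. Isg15, the ubiquitin-like protein that Usp18 removes, had -0.51, -0.24, 0.10, -0.41 and -0.52 as deposited (mean -0.31 ± 0.26; adjusted p = 0.0702). Its corrected values were -0.47, -0.01, 0.29, -0.12 and -0.36 (mean -0.14 ± 0.30), which lie on both sides of 0.

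Mx1, a dynamin-like GTPase against influenza viruses that is defective in many laboratory mouse strains, was the only positive call. It had 0.58, 0.43, 0.26, 0.39 and 0.51 as deposited (mean 0.43 ± 0.12; adjusted p = 0.0094). It sat in column 96, where the surrounding spots had a local median of 0.31, and its corrected values were 0.30, 0.21, -0.08, 0.02 and 0.17 (mean 0.12 ± 0.15; adjusted p = 0.321). Mx2, its neighbour in the family, had 0.07 ± 0.25 and, after correction, 0.24 ± 0.24. Oasl2, an oligoadenylate synthetase-like gene, was positive on 5 of 5 arrays after correction, with 0.46, 0.39, 0.11, 0.07 and 0.54 (mean 0.31 ± 0.21; adjusted p = 0.0913), although as deposited it had 0.13 ± 0.23. Eif2ak2 (PKR, the kinase that halts translation on double-stranded RNA) averaged 0.30 ± 0.20 before correction (adjusted p = 0.0519) and 0.18 ± 0.24 after it. Of the remaining effectors, Adar, which edits double-stranded RNA, had a corrected mean of -0.28 ± 0.21 (adjusted p = 0.118), negative on 5 of 5 arrays. The corrected means of Bst2, Rsad2, Oasl1 and Isg20 were -0.17, -0.18, -0.03 and 0.06, none past the threshold.

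The 6 GTPases and related genes induced by interferon gamma held 1 call as deposited, with a negative ratio (background 12.9% of all named genes). None was called after correction (background 2.30%), where 1 had an unadjusted limma p under 0.05 (background 27.0%). That gene, Ifi47, an immunity-related GTPase, had -0.20, -0.42, -0.12, -0.40 and -0.24 as deposited (mean -0.28 ± 0.13; adjusted p = 0.0331). After correction it had -0.24, -0.35, -0.18, -0.47 and -0.27, all negative (mean -0.30 ± 0.11; adjusted p = 0.0576). Irgm1, a regulatory GTPase of the same family, had the opposite sign, with 0.31 ± 0.24 before correction (adjusted p = 0.0639) and 0.19 ± 0.31 after it, where array 2 stood at 0.72 and array 4 at -0.06. Gbp2, Gbp3, Igtp and Iigp1 had corrected means from -0.19 to -0.06. The lysosomal thiol reductase Ifi30, which prepares antigens for MHC class II, had 0.07 ± 0.14 after correction, and Ifi35 had -0.19 ± 0.17, negative on 5 of 5 arrays.

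The number of called genes changed when an array was left out, and so did the share called among all named genes. Without array 5, 0 of the 40 genes passed as deposited with limma, and the share of all named genes that passed was 4.45%. The adjusted p of the 9 genes called with all 5 arrays was then 0.0528 to 0.106. Their means stayed close to those over 5 arrays, with Ifnar2 at -0.40, Irf3 at -0.39, Oas2 at -0.52 and Mx1 at 0.42. Without array 4, Irf3, Irf5, Usp18 and Ifi47 were lost (adjusted p = 0.0531, 0.0944, 0.095 and 0.11), and 8.17% of all named genes passed. Without array 1, Irf5, Usp18 and Ifi47 were lost (0.0509, 0.0813 and 0.0672; 13.2% of all named genes). Without array 3, Irf5 was lost (0.0532) and Ifih1 and Isg15 were gained (17.3% of all named genes). Without array 2 none of the 9 was lost and Ifih1 was gained (28.9% of all named genes). After correction 2 of the 40 genes passed without array 2, Usp18 (adjusted p = 0.0499) and Ifit2, when 6.98% of all named genes passed.

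**Figure D2:**
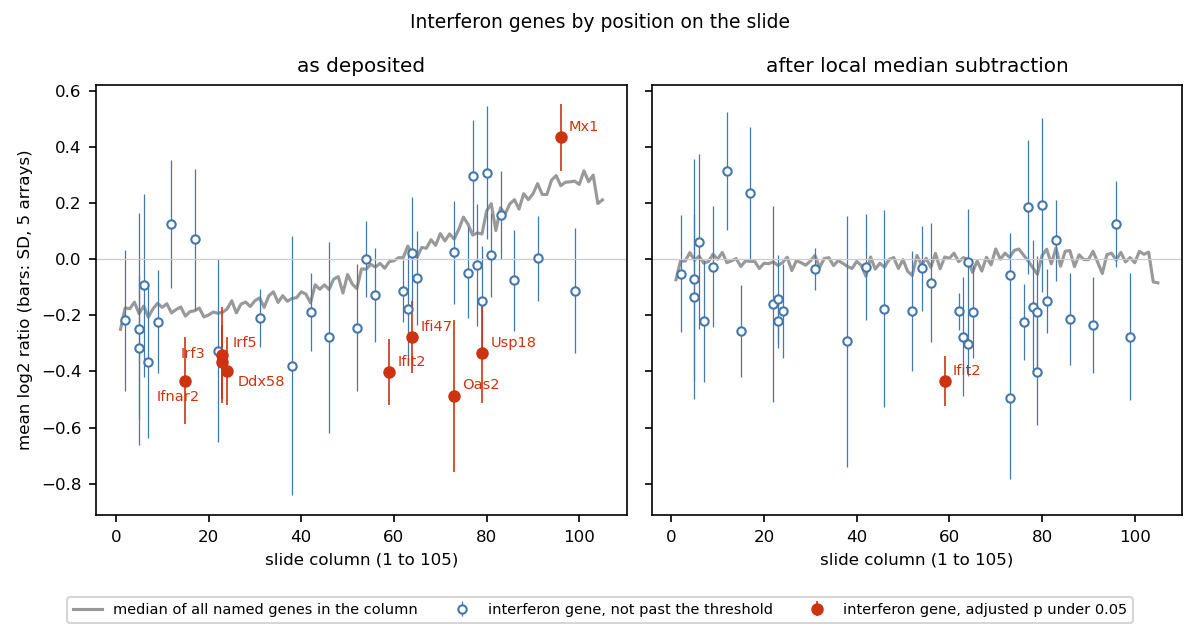
Mean log2 ratio of the 40 interferon genes (y axis, bars are SD over 5 arrays) against the slide column of their probe (x axis), as deposited on the left and after position correction on the right. The grey line is the median of all named genes in each column; filled red points passed an adjusted p of 0.05, 9 genes on the left and Ifit2 alone on the right.

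The median of the interferon genes lay below that of all named genes in each part of the slide. In columns 1 to 35 the 14 interferon genes there had a median of -0.28 as deposited, against -0.18 for all named genes in those columns. In columns 36 to 70 the 12 genes had -0.18 against -0.06, and in the columns from 71 to the right edge the 14 genes had -0.01 against 0.18. After correction the medians were -0.10, -0.19 and -0.18 in these column ranges, against -0.01, -0.01 and 0.00 for all named genes. The gap was smallest in columns 1 to 35 and largest in the columns from 71 to the right edge, before and after correction. The part of slide position in it was not tested.

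The arrays differed in how far the interferon genes departed from 0. After correction the medians of the 40 genes were -0.19, -0.17, -0.04, -0.21 and -0.15 on arrays 1 to 5, against -0.01, 0.00, 0.00, -0.01 and -0.01 for all named genes. As deposited they were -0.14, -0.24, 0.00, -0.21 and -0.17. Array 3 thus showed almost no shift and array 4 the largest after correction. A single array accounted for most of the low extremes. On array 4, 13 of the 40 genes were among the lowest 5% of all named genes after correction: Irf3, Irf7, Ifih1, Usp18, Ifit1, Ifit2, Ifit3, Oas2, Bst2, Adar, Rsad2, Ifi47 and Ifi35. On arrays 1, 2, 3 and 5 the corresponding numbers were 1, 0, 1 and 1. As deposited, 7 genes were in that range on array 4 and 0 to 3 on the others. Array 4 held the lowest corrected value of 22 of the 40 genes (55%), against 16.5% of all named genes, and array 3 held the highest of 18 (45%), against 22.2%. As deposited, these were 16 (40%, against 15.7%) and 20 (50%, against 25.1%). On array 4 Irf7, Oas2 and Rsad2 had -0.86, -0.98 and -0.77 after correction. Without array 4 the median over the 40 genes was -0.14, and 30 of 40 means were negative. Over all 5 arrays 51.6% of all named genes had a negative corrected mean. No batch is named in the labels, and each array has its own RNA pair, so the mice and the array cannot be told apart.

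**Figure D3:**
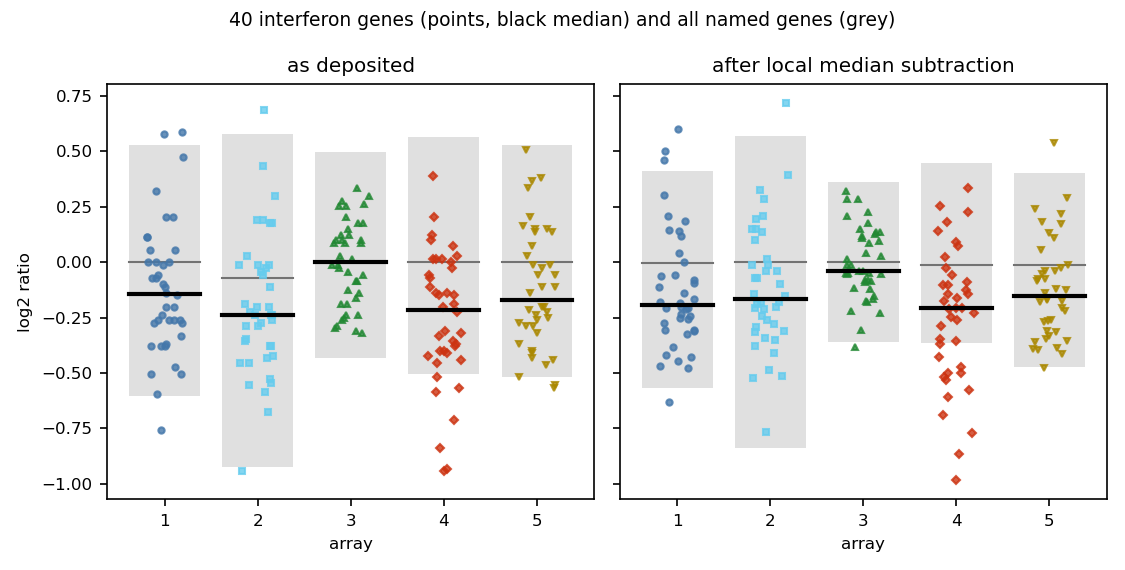
Log2 ratio (y axis) of the 40 interferon genes on each array (x axis; coloured points, with their median as a black bar), as deposited on the left and after position correction on the right. Grey boxes span the 5th to 95th percentile of all named genes and the grey line is their median; on array 4 a tail of 13 corrected points falls below the box, while array 3 centres near 0.

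Other genes of the interferon system were read from a second list, of which 78 of 103 had a probe. As deposited 25 passed the threshold, 10 with a positive and 15 with a negative ratio (backgrounds 12.0% and 12.9% of all named genes), and after correction 2 passed, both negative (background 2.30%). The median of their means was -0.10 as deposited and -0.06 after correction. The 2 corrected calls were Jak1, the kinase shared by the type I and interferon gamma receptors, and Trim30a, an interferon-induced regulator of inflammatory signalling in mice. Jak1 had -1.25, -0.62, -0.45, -0.49 and -0.90 on arrays 1 to 5 after correction (mean -0.74 ± 0.33; adjusted p = 0.0331) and -0.93 ± 0.29 as deposited (adjusted p = 0.00536). Trim30a had -0.99, -0.51, -0.49, -1.02 and -0.40 after correction (mean -0.68 ± 0.30; adjusted p = 0.0323) and -0.88 ± 0.32 as deposited. All 5 arrays were negative for both genes, and both lay outside the range of the 40. Their corrected calls held without array 2 alone. Without array 1, 3, 4 or 5 the adjusted p was 0.057, 0.066, 0.1 and 0.166 for Jak1, and 0.106, 0.075, 0.121 and 0.083 for Trim30a.

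Among ligands and sensors no gene passed after correction (backgrounds 0.612% positive and 2.30% negative). An unadjusted limma p under 0.05 then held for 1 of 7 ligands and 2 of 13 sensing genes (background 27.0% of all named genes). Ifna1 and Ifna9, both interferon alpha genes near the right edge of the slide, were positive as deposited (0.35 ± 0.17, adjusted p = 0.0246, and 0.51 ± 0.34, adjusted p = 0.035) and had 0.07 and 0.35 after correction. Interferon beta (Ifnb1) averaged -0.15 ± 0.08 as deposited and 0.01 ± 0.04 after correction, and Ifna11, another interferon alpha gene, -0.35 ± 0.58 and -0.31 ± 0.52. In the sensing list Ticam1, the adaptor of the receptor Tlr3, was positive (0.38 ± 0.14, adjusted p = 0.0143) as deposited, and Myd88, the adaptor of most other Toll-like receptors, had 0.24 ± 0.15 (adjusted p = 0.0606). The endosomal RNA receptor Tlr7 (-0.39 ± 0.19, adjusted p = 0.0216) and the nucleic acid sensor Zbp1 (-0.40 ± 0.24, adjusted p = 0.0319) were negative as deposited. Without array 5 the calls of Ifna1, Ifna9, Ticam1, Tlr7 and Zbp1 were lost (adjusted p = 0.0686 to 0.12). Those of Ifna1, Ifna9, Tlr7 and Zbp1 were also lost without array 1, those of Ifna1, Ifna9 and Zbp1 without array 3, and those of Ifna9, Ticam1 and Zbp1 without array 4 (adjusted p = 0.0526 to 0.0995). Of 48 further induced genes, 33 had a negative corrected mean (background 51.6% of all named genes) and the median was -0.10. On array 4, 9 of these 48 were among the lowest 5% of all named genes after correction, against 4, 4, 2 and 2 on arrays 1, 2, 3 and 5.

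Markers of cell types moved between arrays too. After correction the median of 11 thymocyte markers was -0.37, 0.10, -0.05, -0.30 and -0.31 on arrays 1 to 5. Of these 11 markers 0 passed the threshold (backgrounds 0.612% and 2.30%), and 7 had an unadjusted limma p under 0.05 (background 27.0%). These 7 went in both directions. Cd3d, Cd4, Cd8a, Cd8b1, Rag1 and Dntt had negative means, and Ptcra had a positive mean (0.33 ± 0.15). Among the 11 markers 8 had a negative mean (background 51.6%), and the median of the 11 means was -0.19, against -0.17 for the 40 interferon genes. The median of 5 plasmacytoid dendritic cell markers was -0.18, -0.03, -0.11, -0.07 and -0.02, and that of 10 dendritic cell and macrophage markers 0.01, -0.07, 0.05, 0.03 and 0.06. The 3 erythroid markers spread the most, with medians of 0.25, 0.99, -0.12, -0.22 and -0.75. Of 10 thymic epithelial markers 1 passed the threshold, with a positive ratio (background 0.612%), and the median of their means was 0.10. The medians were 0.14 for 7 B cell markers and -0.10 for 6 stromal and endothelial markers. In whole thymus, fewer cells of a type and less RNA per cell cannot be told apart. The part of cell makeup in the ratios of the interferon genes was not tested.

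Sequence in front of the genes was read from RefSeq promoter windows on GRCm38.p6, each 300 bases long (250 before the gene start and 50 after it), which were given for 36 of the 43 listed genes. The core of the interferon-stimulated response element, GAAA repeated in the same direction with any 2 bases between the copies, was searched on both strands and matched in 16 of 36 genes (44.4%), against 3.99% of all 27025 genes with a window. The core of the gamma-activated site, TTCNNNGAA, which reads the same on both strands, matched in 13 of 36 (36.1%), against 9.55%. The kappaB consensus, on both strands, matched in 10 of 36 (27.8%), also against 9.55%. Genes with several starts had several windows, and a match in any of them was counted. Of all named genes, 51.6% had a negative corrected mean. The 15 measured genes with the response element core had a median corrected ratio of -0.17, with 13 negative, and the 19 without it had -0.14, with 16 negative. The 12 measured genes with TTCNNNGAA had -0.18, with 10 negative, and the 22 without it had -0.14, with 19 negative. The 10 measured genes with the kappaB consensus had -0.05, with 8 negative, and the 24 without it had -0.19, with 21 negative. A match describes the letters in the window and is no measured binding site.

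**Figure D4:**
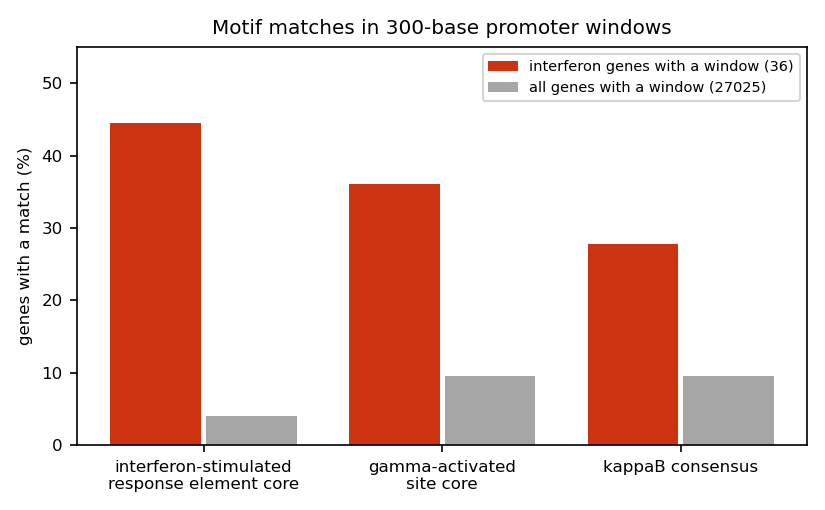
Share of genes (y axis, percent) with a match in their RefSeq promoter windows for each of 3 motifs (x axis), for the 36 listed interferon genes with a window (red) and all 27025 genes with a window (grey). The red bars stand at 44.4%, 36.1% and 27.8%, and the grey bars at 3.99%, 9.55% and 9.55%.

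The stretches around the response element core are shown for measured effector genes whose match lay before the gene start. They show the same core before genes with corrected means from -0.28 for Ifit1 and -0.23 for Ifit3 to -0.01 for Oas3. Eif2ak2 and Irgm1, which have the core but are not shown, had corrected means of 0.18 and 0.19. The other 13 measured genes with the core had negative means. Capitals mark the matches, which read as a TTTC pair where they lie on the other strand, and overlapping matches run together. All lines read 5′ to 3′ in the direction of the gene.
Isg15, chr4:156200860-156200899, minus strand: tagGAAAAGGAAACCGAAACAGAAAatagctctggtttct
Ifit1, chr19:34640785-34640828, plus strand: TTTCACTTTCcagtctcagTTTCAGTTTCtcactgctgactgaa
Ifit3, chr19:34583392-34583431, plus strand: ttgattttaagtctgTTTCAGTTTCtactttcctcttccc
Oas3, chr5:120777710-120777749, minus strand: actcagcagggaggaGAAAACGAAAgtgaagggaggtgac
Bst2, chr8:71537572-71537611, minus strand: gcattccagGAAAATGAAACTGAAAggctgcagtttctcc
Rsad2, chr12:26456548-26456587, minus strand: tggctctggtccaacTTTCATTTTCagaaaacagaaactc

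Ifit2, the gene called both times, is shown with the 250 bases before one of its 2 annotated starts. Capitals mark a kappaB match, which begins 247 bases before the start, and a TTCNNNGAA match, which begins 241 bases before it and overlaps the first. No match to the response element core lay in either of these stretches, and the 250 bases before the other start held no match to any of the 3 motifs. The search covered these short stretches and exact letters alone, so an element elsewhere or with other letters would be missed.
Ifit2, chr19:34550444-34550693, plus strand: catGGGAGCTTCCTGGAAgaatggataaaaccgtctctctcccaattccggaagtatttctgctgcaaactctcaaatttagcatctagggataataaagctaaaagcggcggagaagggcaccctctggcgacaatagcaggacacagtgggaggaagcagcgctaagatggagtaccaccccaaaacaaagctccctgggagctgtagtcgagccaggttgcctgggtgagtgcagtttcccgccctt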

How the data were processed

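Per the labels, RNA of ZAS3-null and wild-type whole thymus was hybridized together on 5 arrays. In the account of the series design, the authors quantified images with GenePix, applied lowess normalization in GeneTraffic, and kept dim spots out of it. The deposited values are log2 ratios, 1 column per array, on 22575 spots with 0 missing values. No filter on dim spots was possible, since scanner intensities are not used here, and the number of arrays limits the precision.

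Annotation numbers were paired with value rows on a slide of 215 rows and 105 columns by an order recovered from the data. With it 18218 spots had 1 gene, and the first 2 probes of a gene correlated at 0.29 across 1193 genes, against 0.01 across 1161 with the numbers as deposited. On position-corrected values the correlation under the recovered order was lower, at 0.13. The identifiers of all 40 measured members equalled those of the RefSeq gene table. Probes of a gene were averaged. Position correction took away the local median over 21 by 21 spots, which left out 256 spots below -1.5 on every array. Each of 20861 features was tested against 0 with limma 3.58.1 in R 4.3.3 (intercept alone, moderated statistics, Benjamini-Hochberg adjustment over all features). Backgrounds are shares of the 16504 named genes. A permutation of signs over 5 arrays cannot give a two-sided p below 0.0625, so none was used.

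The members, lists and tests were chosen with earlier results of these data known. Values on every array are given for the receptors, Stat2, Irf9, Irf1, Irf7, Isg15 and each member called. Other pathway genes are named where called after correction, and otherwise, per list, the 2 with the smallest p in each direction as deposited. Both channels of an array share a number in the labels, and p-values measure the spread between arrays, part of which may be technical. The steps were tested on simulated data with a trend across columns and known changes. Alternatives were deposited numbers, centring, scaling, single probes, robust eBayes, array weights, other windows, column and row medians, other thresholds and each array left out.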

Additional observations from a re-analysis of the deposited data

Results flagged for a closer look

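A value of Iigp1, an immunity-related GTPase induced by interferon gamma, stood apart from the others of its group. After position correction it had 0.18 on array 5, against -0.36 to -0.21 on arrays 1 to 4, a gap of 0.721 of the whole range. Chance flags about 1 in 20 such groups of 5 values. The rule was applied to each of the 40 genes and to their median, as deposited and after correction, and gave no other flag.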

How the results depend on the processing

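The median of the 40 genes stayed negative under every setting listed that kept the recovered probe order, from -0.21 (as deposited, without array 3) to -0.13 (as deposited, without array 4, and after correction by column and row medians). With the deposited numbers, which put other probes under these names, it was 0.057 as deposited and 0.040 after correction. Those numbers gave 8 positive and 4 negative calls as deposited (11.2% and 12.6% of all named genes) and 0 negative calls after correction (3.21%). Under them 1 gene was at 1.5-fold both times, for which no share of all named genes is given. They changed the sign of 24 of the 40 genes as deposited and of 19 after correction. Where the gene was called under either naming, these were Ifngr2 (0.37), Stat2 (0.34), Irf2 (0.46), Irf3 (0.091), Irf7 (0.38), Ddx58 (0.26), Dhx58 (0.37), Usp18 (0.37), Ifit2 (0.10), Oas2 (0.060), Oas3 (-0.36) and Gbp2 (-0.38) as deposited, and Ifit2 (0.024) after correction. As deposited there were 2 positive calls with centring (13.0% of all named genes) or single probes (12.8%), and 3 with scaling (14.0%), array weights (18.6%) or an adjusted p of 0.1 (17.0%). Negative calls as deposited numbered 12 with array weights (19.2%) or at 0.1 (19.2%). After correction there were 2 negative calls with the window of 41 by 41 spots (2.44%), 9 with array weights (10.9%) and 5 at an adjusted p of 0.1 (8.43%), and 1 positive call with array weights (6.65%) or at 0.1 (4.60%). With 1 array left out, negative calls ranged from 0 to 9 and positive calls from 0 to 1 as deposited. The share of all named genes that passed then ranged from 4.45% to 28.9%. After correction negative calls ranged from 0 to 2, and that share from 0.139% to 6.98%. Robust eBayes left 8 negative calls as deposited (12.7% of all named genes). Thresholds, robust eBayes and array weights do not apply to the medians. Each ratio already sets a ZAS3-null against a wild-type thymus, so the test against 0 was itself the paired analysis. There is a single group.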
